A study of Mus musculus with 4 samples.

Results

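The genes described here are 10 mouse genes read as marks of neutrophils and monocytes: S100a8, S100a9, Lyz2, Cd14, Lcn2, Ngp, Camp, Csf1r, Ly6c1 and Ccr2. They were taken by gene name, with earlier results of these data known. Among 39429 different probes, which stood for 22327 named genes, 14 carried their names. Gene expression was measured in liver and white adipose tissue (WAT) of C57BL/6N mice aged 4 weeks with 4 one-colour Agilent arrays. The groups were Pnpla7-/- liver, WT liver, Pnpla7-/- WAT and WT WAT, and the WT animals are named as Pnpla7+/+ in the design text. Each group had 1 array, and each array held equal amounts of RNA from 5 animals, so no difference has a replicate check and no tests or p-values are given. The WAT depot, the sex of the animals and the part of Pnpla7 that was disrupted are not given in the labels, and the extraction protocol names livers for all 4 samples.

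Neutrophils and monocytes are made in bone marrow and reach tissues through the blood. Neutrophils carry granules of antimicrobial proteins, which are made in stages as the cells mature, while classical monocytes carry the chemokine receptor CCR2 and can become macrophages in tissues such as liver and fat. Few of these genes belong to one cell type alone: hepatocytes make lipocalin 2 and can make CD14, resident macrophages express Lyz2 and Csf1r, and endothelial cells express Ly6c1.

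Some probe sequences are given here, since some members have near relatives. The probes were not aligned to those relatives. The S100a8 probe lies at chr3:90473778-90473837 on the plus strand of mm9. It is shown because the member with the lowest ratio rests on it alone, and its capitals mark the 36 bases that code for the calcium-binding loop of an EF hand.
S100a8 probe: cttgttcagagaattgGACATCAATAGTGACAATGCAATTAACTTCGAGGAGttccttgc
The Lyz2 probe lies at chr10:116719175-116719234 on the minus strand. It is shown because Lyz1 is a close copy of Lyz2 and could share its signal.
Lyz2 probe: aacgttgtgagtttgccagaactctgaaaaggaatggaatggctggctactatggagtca
One of the 2 Ly6c1 probes, at chr15:74877785-74877844 on the minus strand, is shown because it and the other, at chr15:74875495-74875554, gave different accounts of the gene in liver.
Ly6c1 probe: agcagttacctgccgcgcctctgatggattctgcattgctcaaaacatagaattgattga
The 2 Camp probes, at chr9:109749911-109749970 and chr9:109749901-109749950 on the minus strand, share 50 bases by their letters, with differences at 2 of them. The files place only 50 of the 60 bases of the second probe, so its printed range is shorter than the probe. Below, the same 30 bases are given from each, and capitals mark A6G and T10C, counted from 1 at the 5′ end of the first window.
Camp first probe: cagccAgagTagtaggcctgccttggcctg
Camp second probe: cagccGgagCagtaggcctgccttggcctg

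S100a8 and S100a9 are neighbours in the S100 cluster of chromosome 3. Their promoters, from RefSeq on GRCm38.p6, are shown because the genes had opposite ratios in WAT. The S100a8 window is chr3:90668821-90669120 on the plus strand and that of S100a9 is chr3:90695672-90695971 on the minus strand, each with 250 bases before and 50 after the annotated start. Capitals mark 3 motifs searched on both strands: TATAAA (the TATA box), ATTGC (a core of C/EBP sites, GCAAT on the other strand) and GAGGAA (the core of PU.1 sites, TTCCTC on the other strand).
S100a8 promoter: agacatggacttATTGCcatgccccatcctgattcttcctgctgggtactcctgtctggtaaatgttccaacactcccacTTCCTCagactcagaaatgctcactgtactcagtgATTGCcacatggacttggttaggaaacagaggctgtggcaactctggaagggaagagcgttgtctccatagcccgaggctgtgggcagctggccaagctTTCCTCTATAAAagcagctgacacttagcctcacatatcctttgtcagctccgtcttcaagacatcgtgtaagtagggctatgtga
S100a9 promoter: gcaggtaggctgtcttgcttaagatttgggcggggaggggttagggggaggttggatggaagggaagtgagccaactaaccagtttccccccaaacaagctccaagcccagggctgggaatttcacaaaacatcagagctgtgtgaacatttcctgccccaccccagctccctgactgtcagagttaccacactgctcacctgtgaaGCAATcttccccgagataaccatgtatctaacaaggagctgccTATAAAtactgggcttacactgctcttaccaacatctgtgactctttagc
In S100a8 the TATA box began at -30 from the annotated start, next to a PU.1 core at -36, with a further PU.1 core at -170 and C/EBP cores at -238 and -135. In S100a9 the TATA box began at the annotated start and the C/EBP core at -43, and the PU.1 letters were not found in this window. Promoter windows were searched for 8 of the members, Cd14 and Csf1r being left out. Of these members 3 held the TATA box, 5 the C/EBP core and 3 the PU.1 core. Ly6c1 had 2 windows and was counted if either held the motif, whereas the shares that follow are per window. Of all 32851 promoter windows of this length, 13.6% held the TATA box, 26.4% the C/EBP core and 28.3% the PU.1 core. Such matches are letters in a window and show no binding.

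Between 65.5% and 72.6% of the spots of an array were well above background, and 0 spots were saturated. On the WT arrays the log2 ratio of WAT over liver was below 0 for each of 22 hepatocyte markers, with a median of -7.42. All 15 adipocyte markers measured in both tissues were higher in WAT there, by a median of 5.77, so each tissue carried the markers of its label. The single Pnpla7 probe read 7.98 times the array's 75th percentile in labelled-KO liver and 9.04 times in WT liver (log2 ratio -0.18), and 0.372 times in labelled-KO WAT and 0.739 times in WT WAT (-0.99). A probe outside the disrupted part checks nothing, so every direction below rests on the labels, and the Pnpla7-/- arrays are called labelled KO. Levels are log2 of the processed signal relative to the array's 75th percentile, and ratios are labelled KO over WT on the log2 scale. The scanner software put the median error of a ratio at 0.20 in each tissue, in which a fixed multiplicative error of 0.1 weighs most, and the pooled SD between probes of 1 gene was 0.20 in liver and 0.23 in WAT. Neither error covers the spread between animals.

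In labelled-KO WAT, S100a8 and Lyz2 were at least 2-fold lower and Cd14 at least 2-fold higher than in WT WAT, and the other 6 measured members lay within 2-fold. In liver all 9 measured members lay within 2-fold, the lowest being S100a9, S100a8 and Camp and the highest Ccr2. Ngp could be compared in neither tissue, since it was well above background in WT liver alone. Of the 16131 genes compared in WAT, 4.18% reached 2-fold either way, 2.16% upward and 2.01% downward. Of the 15568 compared in liver it was 2.64%, with 1.75% upward and 0.886% downward. The median log2 ratio of the 9 members was -0.03 in WAT, against 0.02 for all genes there, and -0.27 in liver, against -0.03 for all genes there. The arrays read RNA of whole tissue, in which fewer cells of a type and less RNA per cell cannot be told apart.

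**Figure D1:**
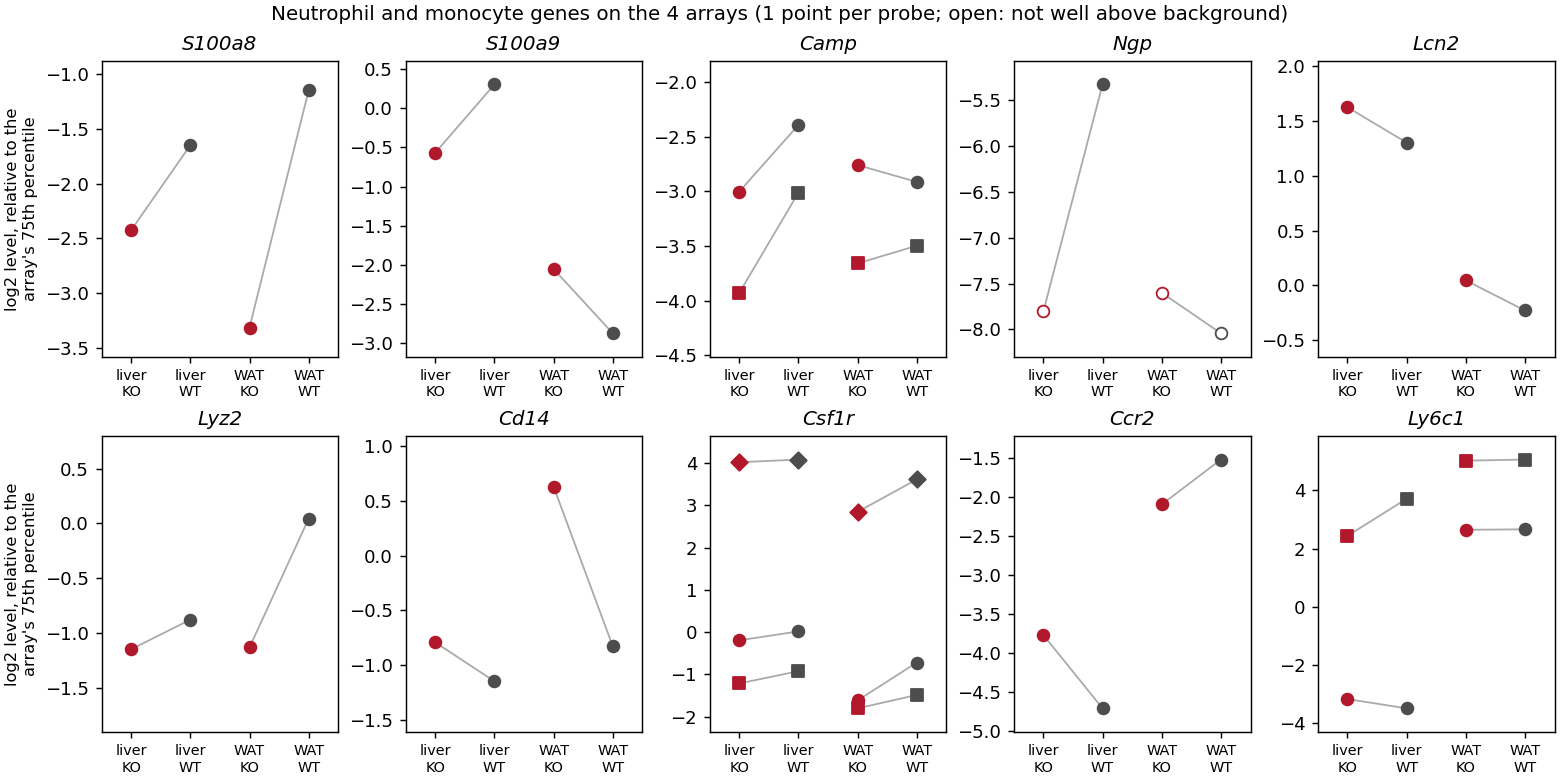
Levels of the 10 neutrophil and monocyte genes on the 4 arrays, with 1 panel per gene. The y axis is the log2 processed signal relative to the array's 75th percentile. Red points are labelled KO, grey points WT, each marker shape is 1 probe, lines join the arrays of a tissue, and open points were not well above background. S100a8 and S100a9 slope the same way in liver and opposite ways in WAT.

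S100A8 and S100A9 are calcium-binding proteins that pair to form calprotectin, the most abundant protein of the neutrophil cytosol. S100a8 stood at -2.43 in labelled-KO liver and -1.65 in WT liver, and at -3.31 in labelled-KO WAT and -1.15 in WT WAT. Its labelled-KO arrays were the lower ones in both tissues. The ratio was -0.78 ± 0.21 (scanner error) in liver, or 58.4% of WT, and -2.17 ± 0.21 in WAT, or 4.49-fold lower. Only 0.0930% of the genes measured in WAT had a lower ratio than S100a8. When background was corrected with normexp instead of taking the processed signal, the WAT ratio lay between -1.93 and -1.71.

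S100a9 stood at -0.57 in labelled-KO liver and 0.30 in WT liver, and at -2.06 in labelled-KO WAT and -2.88 in WT WAT. It was thus lower in labelled-KO liver, with a ratio of -0.87 ± 0.20, and higher in labelled-KO WAT, with a ratio of 0.82 ± 0.21, or 1.77-fold. The partners of calprotectin had ratios of 1 sign in liver and of opposite signs in WAT. Under the 8 other ways of processing the arrays the S100a9 ratio kept these signs, with ranges of -0.87 to -0.82 in liver and 0.72 to 0.89 in WAT.

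Camp codes for the cathelicidin CRAMP and Ngp for neutrophilic granule protein, a cystatin-like protein, and both are stored in the secondary granules that form late in neutrophil maturation. The first Camp probe stood at -3.00 in labelled-KO liver and -2.39 in WT liver, and at -2.76 in labelled-KO WAT and -2.91 in WT WAT. The second stood at -3.93 in labelled-KO liver and -3.01 in WT liver, and at -3.66 in labelled-KO WAT and -3.50 in WT WAT. Both read lower in labelled-KO liver, with ratios of -0.61 and -0.92 and a mean of -0.76. In WAT they had opposite signs, 0.15 and -0.16, and labelled KO was at 99.8% of WT.

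The Ngp probe stood at -7.80 in labelled-KO liver and -5.33 in WT liver, and at -7.60 in labelled-KO WAT and -8.04 in WT WAT. Only the WT liver value was well above background. Labelled-KO liver was therefore at least 1.67-fold lower than WT liver, a bound set against the lowest signal well above background on the labelled-KO array. The bound was 2.10-fold and 3.13-fold with normexp at offsets of 50 and 0. In WAT there is no comparison for Ngp.

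Lcn2 codes for lipocalin 2, a carrier of bacterial siderophores found in neutrophil granules and secreted by hepatocytes in the acute phase. It stood at 1.63 in labelled-KO liver and 1.30 in WT liver, and at 0.04 in labelled-KO WAT and -0.23 in WT WAT. It was the only granule gene among the members that read higher on both labelled-KO arrays, with ratios of 0.32 ± 0.20 in liver and 0.27 ± 0.20 in WAT, each slightly larger than the scanner error.

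Lyz2 codes for lysozyme M, an enzyme of neutrophils, monocytes and macrophages that cleaves bacterial cell walls. It stood at -1.15 in labelled-KO liver and -0.88 in WT liver, and at -1.13 in labelled-KO WAT and 0.04 in WT WAT. WT WAT was the one array above the others, which lay close together. The ratio was -0.27 ± 0.21 in liver and -1.18 ± 0.20 in WAT, or 2.26-fold lower. Its near copy Lyz1 had ratios of -0.24 in liver and -0.83 in WAT, and the probes cannot be assumed to tell the copies apart.

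CD14 is the co-receptor that hands bacterial lipopolysaccharide to TLR4. Cd14 stood at -0.79 in labelled-KO liver and -1.15 in WT liver, and at 0.63 in labelled-KO WAT and -0.83 in WT WAT. Labelled-KO WAT was above the other arrays. The ratio was 0.36 in liver and 1.46 ± 0.20 in WAT, or 2.75-fold higher, so that Cd14 and Lyz2 had opposite ratios in WAT.

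Csf1r codes for the receptor of the macrophage growth factors CSF1 and IL-34. Its brightest probe stood at 4.02 in labelled-KO liver and 4.08 in WT liver, and at 2.85 in labelled-KO WAT and 3.61 in WT WAT. The other probes stood at -0.19 and -1.21 in labelled-KO liver, against 0.02 and -0.92 in WT liver, and at -1.62 and -1.80 in labelled-KO WAT, against -0.72 and -1.49 in WT WAT. All 3 probes read lower in labelled KO in both tissues. The mean ratio was -0.19 in liver, where the scanner error of a single probe was 0.20. In WAT it was -0.66, or 63.3% of WT, with probes between -0.90 and -0.32.

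Ccr2 codes for the chemokine receptor that classical monocytes need to leave the bone marrow. It stood at -3.77 in labelled-KO liver and -4.71 in WT liver, and at -2.10 in labelled-KO WAT and -1.53 in WT WAT. The liver ratio was 0.94 ± 0.28, or 1.92-fold higher, but it was -0.27 and -0.31 with normexp at offsets of 50 and 0, so its direction in liver is not settled. In WAT the ratio was -0.57 ± 0.21, with a range of -0.61 to -0.49 over the other ways of processing.

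Ly6c1 codes for a GPI-anchored surface protein and is a near copy of Ly6c2, the form of Ly-6C by which classical monocytes are sorted. The probe shown above stood at -3.16 in labelled-KO liver and -3.48 in WT liver, and at 2.64 in labelled-KO WAT and 2.66 in WT WAT. The other probe stood at 2.44 in labelled-KO liver and 3.71 in WT liver, and at 5.02 in labelled-KO WAT and 5.05 in WT WAT. In liver the probes had opposite signs, 0.32 and -1.27, so the mean ratio of -0.48 describes neither. In WAT both read nearly the same in the genotypes, with ratios of -0.02 and -0.04. Ly6c2 itself was looked for, but no probe was named to it, so it could not be read.

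**Figure D2:**
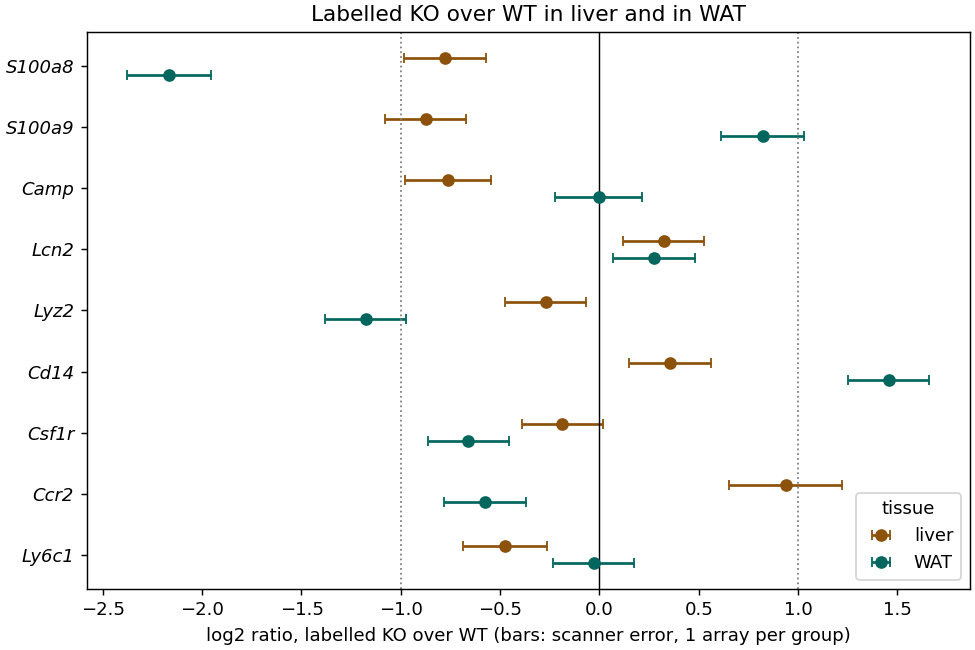
Log2 ratios of labelled KO over WT (x axis) for the 9 measured members, with liver in brown and WAT in green. Bars are the scanner software's error for 1 array per group, averaged over a gene's probes, and dotted lines mark 2-fold. S100a8 and Lyz2 in WAT lie left of the dotted line and Cd14 in WAT right of it, while S100a9 and Ccr2 lie on opposite sides of 0 in the tissues.

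Set against each other, the tissues differed most for S100a9 and Ccr2. The WAT ratio minus the liver ratio was 1.69 ± 0.29 for S100a9, -1.51 for Ccr2, -1.39 ± 0.30 for S100a8 and 1.102 for Cd14, on the log2 scale. For Lyz2 it was -0.91, for Camp 0.76, for Csf1r -0.47, for Ly6c1 0.45 and for Lcn2 -0.05. A difference of 2-fold or more was thus seen for 4 of 9 members, against 8.14% of all 14896 genes measured in both tissues. With normexp at an offset of 50 it was seen for 2 members, S100a9 and Cd14, while Ccr2 was at -0.23 and S100a8 at -0.91.

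Between tissues, Ly6c1 and Ccr2 were higher in WAT and S100a9 and Lcn2 lower, on both pairs of arrays. In labelled KO and in WT, the WAT over liver ratio was 4.19 and 3.75 for Ly6c1, 1.67 and 3.18 for Ccr2, -1.49 and -3.18 for S100a9, and -1.58 and -1.53 for Lcn2. The Ly6c1 probes differed widely in size, with 2.58 and 5.81 in labelled KO and 1.35 and 6.14 in WT. At least 2-fold higher in WAT were 3 members in labelled KO, Cd14 being the third at 1.42, and 2 in WT, against 17.7% and 18.1% of the genes compared. At least 2-fold lower were 3 members in labelled KO, Csf1r being the third at -1.06, and 2 in WT, against 13.7% and 15.6%. Either way, 6 of 9 members in labelled KO and 4 of 9 in WT differed 2-fold between the tissues, against 31.4% and 33.7% of the genes compared. S100a8 was lower in WAT than in liver in labelled KO (-0.89) and higher in WT (0.50). These ratios use the same 4 arrays as the ratios of labelled KO over WT and add no separate evidence.

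The other granule and effector genes of neutrophils did not share 1 direction in liver. In labelled-KO liver 1 of the list's 21 measured genes reached 2-fold upward and 2 downward, around a median of -0.07 (all genes -0.03). Ltf, which codes for the secondary granule protein lactoferrin, stood at -5.27 in labelled-KO liver and -3.62 in WT liver, a ratio of -1.65. The lowest signal well above background on the labelled-KO liver array was at -6.06, so Ltf was near the floor there. Wfdc21 had a ratio of -1.49, and Cebpe, the transcription factor that drives secondary granule genes, -0.92. Slpi, a protease inhibitor that epithelia also secrete, was at 2.21. Mpo, Ctsg, Elane and Prtn3, which code for enzymes of the primary granules that form early, had liver ratios of -0.88, -0.59, -0.23 and -0.06. Ltf, Camp and Ngp, genes of the secondary granules, thus read lower in labelled-KO liver, Ngp only by a bound of at least 1.67-fold. This was not particular to those granules, since Mpo, Ctsg, Elane and Prtn3 were below 0 as well. Lcn2 read higher, and Cybb and Chil3 of the same list were at 0.25 and 0.02 (-0.18 and -0.44 with normexp at offset 50). Over the whole list 9 genes were above 0 in liver and 12 below, Cyba being at 0.42. With normexp at offsets of 50 and 0 the list's liver median was -0.67 and -0.86 and 3 and 9 of its genes reached 2-fold downward, settings that also moved the median of all liver genes to -0.19 and -0.20.

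In labelled-KO WAT 5 of 21 measured granule and effector genes were lower by 2-fold or more and 0 were higher by as much, around a median of -0.33 (all genes 0.02). The lowest was Wfdc21 at -1.60. Hp, which codes for haptoglobin and is also made by hepatocytes and adipocytes, was at -1.29, Slpi at -1.26, Anxa1, an anti-inflammatory phospholipid-binding protein, at -1.10 and Ncf4, a subunit of the phagocyte oxidase, at -1.06. Ltf at 0.79, Elane at 0.60 and Ctsg at 0.30 were on the other side, while Mpo was at -0.42 and Prtn3 at -0.17. With normexp the list's WAT median was -0.05 and -0.13. Mmp8, Ms4a3, Stfa1 and Stfa2l1 were not well above background on any array.

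Among surface and migration genes of neutrophils, of 18 measured in liver 0 reached 2-fold, with a median of -0.02 (-0.31 with normexp at offset 50), and of 19 in WAT 1 was at least 2-fold lower, with a median of -0.16 (-0.07 with normexp at offset 50). That gene was Cxcr4 at -1.09 (-0.72 with normexp at offset 50), the receptor that holds neutrophils in bone marrow. Ly6g, the surface protein by which mouse neutrophils are sorted, stood at -0.88 in labelled-KO liver and -0.13 in WT liver, and at -2.72 in labelled-KO WAT and -2.33 in WT WAT, ratios of -0.75 and -0.40. Cxcr2, Trem3 and Clec4e were not well above background on any array.

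Most monocyte genes other than the members read lower in labelled-KO WAT. There 25 of 28 measured genes had ratios below 0, 4 reached 2-fold downward and 0 upward, and the median was -0.74 (all genes 0.02). The 4 were F13a1 at -1.38, Emilin2 at -1.17, Aif1 at -1.15 and Ms4a6c at -1.13. F13a1 codes for the A subunit of coagulation factor XIII and Aif1 for the actin-bundling protein IBA1, which macrophages also express. Cebpb, a transcription factor of myeloid cells, hepatocytes and adipocytes, was at 0.58 in WAT and Plac8 at 0.38. In liver 0 of 26 reached 2-fold, 15 were above and 11 below 0, and the median was 0.10 (-0.12 with normexp at either offset). With normexp at offsets of 50 and 0 the WAT median of the list was -0.45 and -0.52, and 2 and 3 of its genes reached 2-fold downward, F13a1 being at -0.95 and Ms4a6c at -0.85 with offset 50.

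Ligands and receptors of the member proteins were measured for 20 genes in WAT, of which 6 reached 2-fold downward and 1 upward. Of all genes compared in WAT, 2.01% did so downward and 2.16% upward. The list's median was -0.47 (all genes 0.02). With normexp at offset 50 it was -0.29, and 5 of the genes reached 2-fold downward and 0 upward. Of the ligands of CCR2, Ccl12, Ccl7 and Ccl2 had ratios of -1.72, -1.58 and -1.15. The receptor and these ligands thus all read lower in labelled-KO WAT. Ccl8, a related chemokine counted in the list but not taken here as a mouse ligand of CCR2, stood at -1.33 in labelled-KO WAT and 0.86 in WT WAT. Its ratio was -2.19. Lbp, the plasma protein that passes lipopolysaccharide to CD14, was at -2.51, while Tlr4 and Ly96, the receptor complex behind CD14, were at -0.21 and -0.61 and Cd14 itself at 1.46. Csf1 and Il34, the ligands of CSF1R, were at -1.09 and -0.49. Cxcl1, a chemokine for neutrophils, was at 1.38 (0.92 with normexp at offset 50).

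In liver 1 of 17 measured ligands and receptors reached 2-fold upward and 0 downward, around a median of 0.03 (-0.25 with normexp at offset 50). That gene was Ccl2 at 1.03 (0.48 and 0.56 with normexp), followed by Vcam1, an adhesion molecule for monocytes, at 0.76. Lbp was at -0.29, Ly96 at 0.26, Tlr2 at 0.43 and Slc22a17, a lipocalin 2 receptor, at 0.30, and Cxcl1 at -0.45. Csf3, Csf2, Cxcl2, Cxcl5 and Sele were not well above background on any array.

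**Figure D3:**
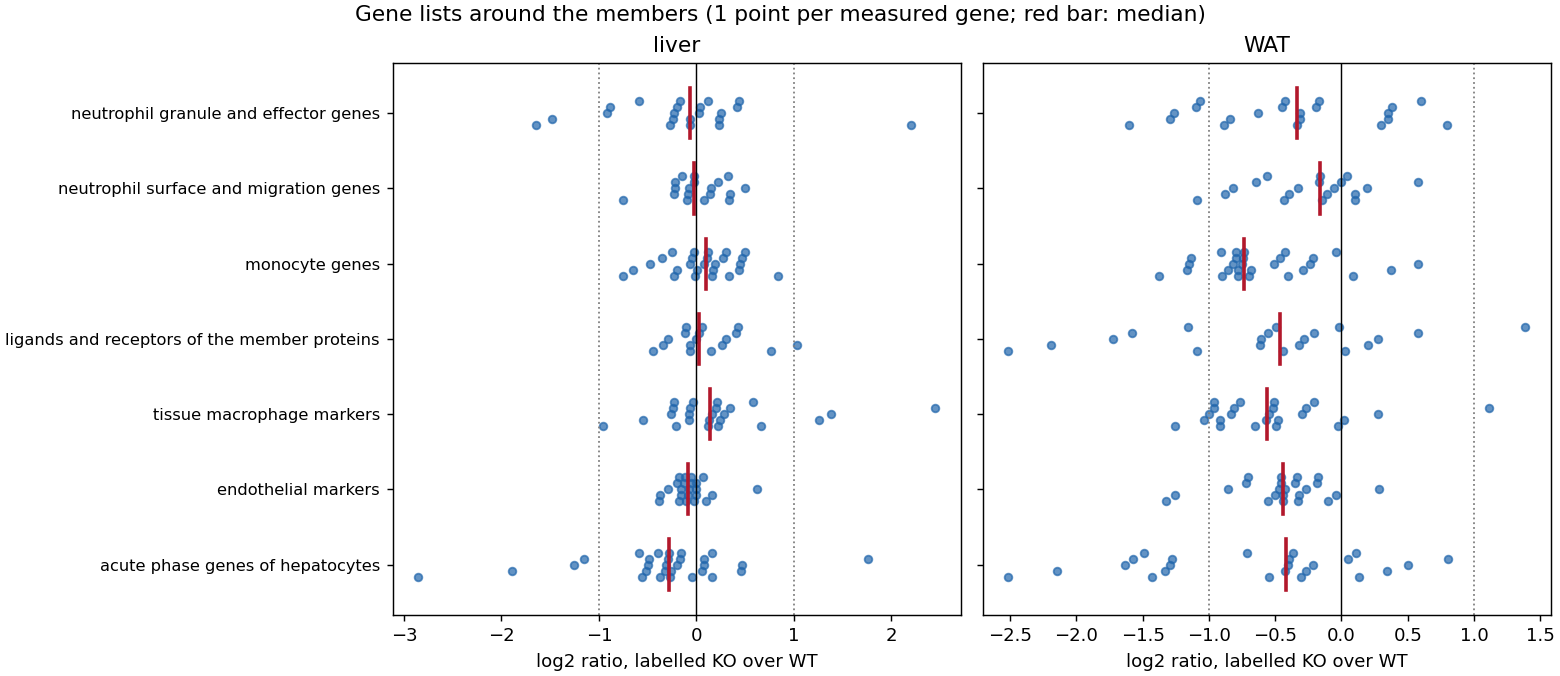
Log2 ratios of labelled KO over WT (x axis) for the measured genes of 7 lists in liver (left) and WAT (right). Each point is 1 gene, the red bar is the list's median, and dotted lines mark 2-fold. The monocyte, tissue macrophage and endothelial lists lie mostly left of 0 in WAT and around 0 in liver.

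Relatives of the members were also read. In the S100 family S100g had ratios of 1.87 in liver and 3.44 in WAT, S100a11 of 1.43 and -0.59, and S100a4, which many motile cells express, of 0.49 and -1.04. The list read for the family also holds S100pbp, which codes for a protein that binds an S100 protein and is not of the family. S100pbp was at 0.08 in liver and -0.01 in WAT. With it included, 2 of 11 measured genes were at least 2-fold higher in liver, and in WAT 1 of 12 was higher and 1 lower. The medians of this list were 0.07 in liver (-0.20 with normexp at either offset) and -0.14 in WAT. They are not medians of the family alone. In the Ly6 family Ly6d was at 2.86 in liver and 1.12 in WAT (0.85 with normexp at offset 50). The median of the 8 measured Ly6 genes was -0.22 in liver and -0.30 in WAT.

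Markers of other cells also differed between the genotypes, in both directions. Tissue macrophage markers in WAT had 2 of 24 genes at least 2-fold lower and 1 higher, a median of -0.56, and a summed signal of 46.2 times the 75th percentile in labelled KO and 60.0 times in WT. Folr2, a receptor of resident macrophages, was at -1.26 in WAT and C1qa at -1.03. In liver 3 of 24 were at least 2-fold higher and 0 lower, namely Trem2 at 2.45, Lgals3 at 1.38 and Itgax at 1.26 (1.66, 1.40 and 0.62 with normexp at offset 50), and the summed signal was 107 times in labelled KO and 98.3 times in WT. Gpnmb, a further macrophage gene, was well above background in labelled-KO liver and not in WT liver, at least 8.61-fold higher (2.07 with normexp at offset 50), and was the gene that reached 2-fold upward in WAT, at 1.11 (0.71 with normexp at offset 50).

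Endothelial markers, which bear on Ly6c1, had a median of -0.08 in liver and -0.44 in WAT, with summed signals in WAT of 91.5 times in labelled KO and 119 times in WT, and 22 of 23 below 0 there. Erythroid and progenitor markers had a liver median of -0.54, with 13 of 15 below 0, 1 of them at least 2-fold lower (3 with normexp at either offset), and summed signals of 74.8 times in labelled KO and 121 times in WT. Skeletal muscle markers in WAT had 15 of 17 genes at least 2-fold higher in labelled KO, with summed signals of 76.5 times in labelled KO and 10.3 times in WT, where Casq1 alone was not well above background. Epithelial markers in WAT had 5 of 14 at least 2-fold higher (3 with normexp at offset 50) and 0 lower, with sums of 10.04 times in labelled KO and 3.50 times in WT, where Epcam, Cdh1 and Elf3 were not well above background. Hepatocyte markers had 11 of 22 at least 2-fold lower in labelled-KO WAT, although their summed signal was 310 times in labelled KO and 239 times in WT, and acute phase genes had 9 of 24 lower. Lymphocyte markers had 0 of 16 past 2-fold in either tissue, with medians of -0.23 in liver and -0.06 in WAT. With normexp at offsets of 50 and 0 their liver median was -0.56 and -0.65, and 1 and 3 of them reached 2-fold downward there. The part of each of these lists in the values of the neutrophil and monocyte genes was not tested.

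Over the 4 arrays, the genes with the pattern most like each member were found among 14888 genes measured on all of them, by the root mean square distance of levels centred on the gene's own mean. For S100a8 they were Folr2, Mfsd7a and Tbx22, each at about 0.35 on the log2 scale. Lyz2 was at rank 22 for S100a8, at 0.51, whereas S100a9, the partner of S100a8 in calprotectin, was at 1.50. The nearest to Lyz2 was Bst1 at 0.09, to S100a9 Acat2 at 0.03, to Cd14 Bhlhb9 at 0.03, and to Lcn2 Nanp at 0.04. Camp had Gadd45g at 0.02, Csf1r had Ptgs1 at 0.04, Ly6c1 had Cib2 at 0.07 and Ccr2 had Numbl at 0.05. With 4 points a short distance is easily met and says nothing of shared cells or control.

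**Figure D4:**
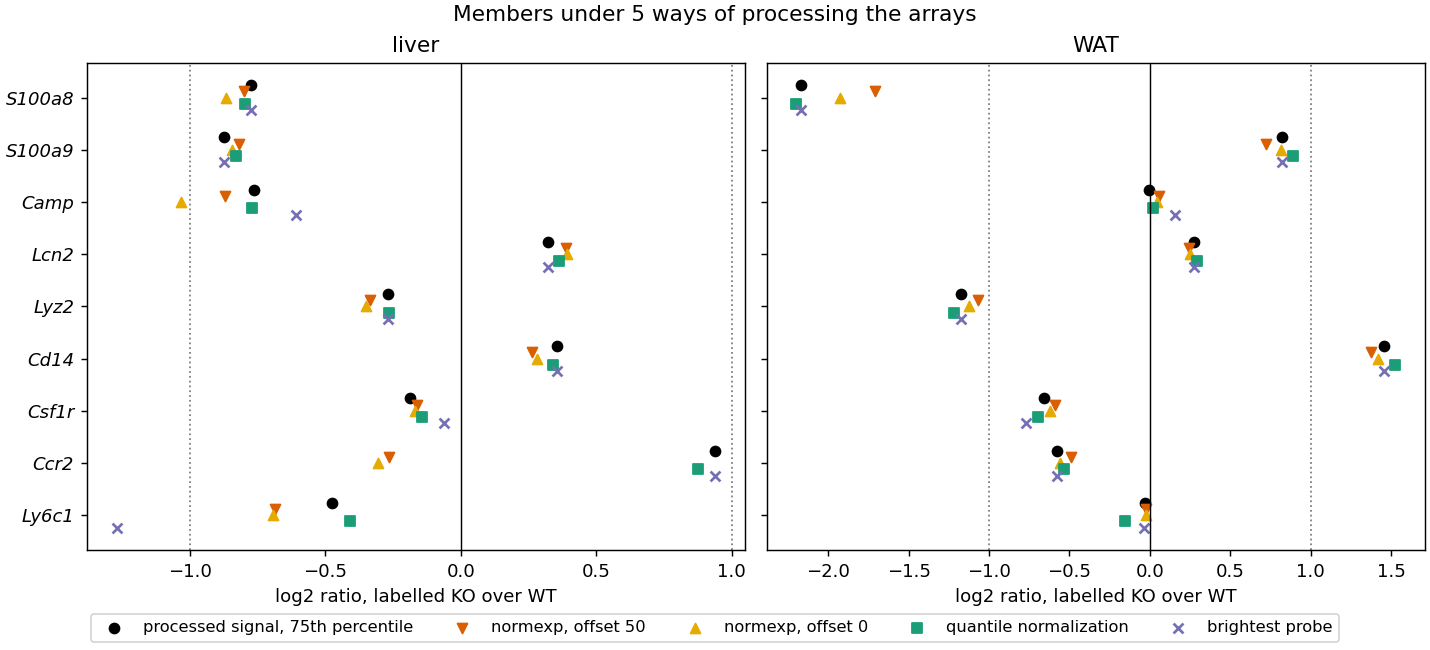
Log2 ratios of labelled KO over WT (x axis) for the 9 measured members in liver (left) and WAT (right) under 5 ways of processing the arrays, shown by marker shape and colour, with dotted lines at 2-fold. Ccr2 in liver is the member whose points fall far apart on both sides of 0, and Ly6c1 in liver moves to -1.27 with its brightest probe, while S100a8, Lyz2 and Cd14 in WAT stay past 2-fold throughout.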

How the data were processed

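The 4 deposited scanner files hold intensity per spot, made with Agilent Feature Extraction 11.0.1.1 per the submitters' processing notes. Per the file headers the processed signal used here is an intensity corrected for background, and it was not scaled between arrays. The authors' series table was found to be a ratio, each array's processed signal over a constant of its own, with column medians of 0.0751, 0.0737, 0.0875 and 0.0876 for labelled-KO liver, WT liver, labelled-KO WAT and WT WAT, and no centring of genes. Its direction and scale were settled by this and it served as an alternative.

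Levels were computed as log2 of the processed signal, from which that of the 75th percentile of all non-control spots of the array was subtracted. Outlier spots (79 to 110 per array) were left out and the spots of a probe averaged. A probe counted as measured in a comparison by its spots on each of the 2 arrays. The scanner software had to mark more than a 0.5 share of them as well above background. A gene's ratio was averaged over its measured probes. The scanner error given for a gene is the mean of its probes' errors and not the error of their mean. The median SD of a log2 ratio over repeat spots was 0.04 in liver and 0.05 in WAT. A bound divides the bright signal by the dim probe's own, or by the lowest signal well above background on that array where this is higher. Probes were named through a RefSeq gene table of GRCm38.p6: 27234 by accession, 3576 by symbol and 565 by synonym, while 8054 kept no gene name. Positions are those of the files, on mm9.

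Members and lists were chosen with earlier results of these data known, so no list is independent evidence. Named were all members, up to 5 genes per list with the largest ratios per tissue, measured ligands and receptors, and the 3 genes of nearest pattern. Ltf, Elane, Ctsg, Mpo, Cebpe, Ly6g, Lyz1, Plac8, Gpnmb and some others beside them were named for their role or after their values were seen. Alternatives were normexp background correction at offsets of 50 and 0 (limma 3.58.1, R 4.3.3), the series table, quantile normalization, a 75th percentile over probes measured on all arrays, no filter on dim probes, outlier spots kept and the brightest probe. Python 3.11.15, numpy 2.4.6 and pandas 2.3.3 did the rest, and the steps were tested on simulated data. Some genes that met the naming rule are not reported here.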

Additional observations from a re-analysis of the deposited data

Results flagged for a closer look

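S100a9 differed between the tissues: its labelled-KO over WT log2 ratio was 0.82 in WAT and -0.87 in liver, a difference of 1.69, each ratio being larger than its scanner error and of opposite sign. Ccr2 differed likewise, with -0.57 in WAT and 0.94 in liver, a difference of -1.51. Its liver ratio had the other sign with normexp background correction. With 1 array per group neither difference was tested.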

How the results depend on the processing

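No paired analysis was possible because each group had 1 array, and for the same reason no replicate could be left out. Of 36 member ratios over the 4 comparisons, 8 moved by more than their error with normexp at offset 50, 7 at offset 0, 3 with quantile normalization and 3 with the brightest probe, and 0 with the other 4 settings. Ccr2 in liver was -0.27 and -0.31 with normexp, against 0.94. Camp in WAT, at -0.00, and Lyz2 for WAT over liver in labelled KO, at 0.02, also changed sign in some settings, within their error. The count of members at least 2-fold lower in liver was 0, but 1 with normexp at offset 0 (Camp), 1 with no filter on dim probes (Ngp) and 1 with the brightest probe (Ly6c1). The count of members that differed 2-fold between tissues was 4, but 2 with normexp at offset 50, and at offset 0 it was 4 with Camp in and Ccr2 out. The direction of the liver pair as a whole depended on background correction: 273 genes were at least 2-fold higher and 138 lower, against 103 and 242 at offset 50 and 113 and 1467 at offset 0, so that the share of higher among them was 66.4%, 29.9% and 7.15%. The cause was not tested.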

Other observations

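Of the eosinophil genes, which are outside the comparisons above, Epx and Siglecf were well above background in labelled-KO liver and not in WT liver. Prg2, a further eosinophil gene, was not well above background on either liver array. Epx, which codes for eosinophil peroxidase, was at least 3.69-fold higher there than in WT liver and Siglecf, a surface lectin of eosinophils, at least 4.78-fold higher. With normexp at offset 50 the bounds were 1.01-fold and 1.19-fold. Ccr3, the eosinophil chemokine receptor, had a liver ratio of 0.31, which had the other sign with normexp (-0.74 at its lowest).

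Acute phase genes of hepatocytes, the class to which Lcn2 also belongs, did not share 1 direction in liver. Saa3, a serum amyloid A that macrophages and adipocytes make, had ratios of 1.76 in liver and -2.15 in WAT. Orm3 was at -2.85 and Hamp2 at -1.89 in liver. Of 29 measured genes 4 were at least 2-fold lower and 1 at least 2-fold higher in liver, with a median of -0.28.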
